A study of Mus musculus with 48 samples.

Results

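Transcripts of 10 genes of corticosteroid signalling were followed in 4 cell populations of mice infused with angiotensin II, with or without VEGFCc156s. The genes were the glucocorticoid receptor Nr3c1, the mineralocorticoid receptor Nr3c2, the receptor target genes Tsc22d3, Fkbp5, Per1, Sgk1, Zbtb16 and Klf9, and the corticosteroid-converting enzymes Hsd11b1 and Hsd11b2. They are 10 of the 54752 Ensembl genes of the matrix, and each was found by its Ensembl gene identifier. The genes were chosen by name, as known receptors and targets, with earlier results of these data in view. No threshold on a measured value is recorded for the choice, so there are no members just inside or outside one. Their values are therefore given as a description, and each p-value is that of a fit over all genes.

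The libraries came from C57BL/6 mice (of the C57BL/6J substrain, per the methods of the study) carrying Prox1-eGFP, a knock-in in which the endogenous Prox1 promoter drives eGFP together with Prox1, and all groups carried it. Control mice (ctrl) received saline and bovine serum albumin from a subcutaneous minipump. Mice of the angII group received angiotensin II with albumin, and mice of the angII+VEGFC group received angiotensin II and VEGFCc156s, a VEGF-C variant used as a lymphangiogenic agent. Lymphatic endothelial cells (LECs) of heart and diaphragm and blood endothelial cells (BECs) of the heart were sorted as live CD31+ CD45.2- cells and separated by eGFP, whereas cardiomyocytes were pelleted by slow centrifugation and not sorted. Each population had 4 ctrl, 5 angII and 3 angII+VEGFC libraries, 48 in all. The ages in the labels were 9, 8, 16 and 16 months for the ctrl mice, 8, 14, 16, 16 and 14 months for the angII mice whose hearts were used, and 15, 8 and 8 months for the angII+VEGFC mice. The methods of the study state the age of this line in weeks, so the unit of the labels is uncertain. The hearts of 12 mice gave the 3 cardiac populations, and 11 of these mice also gave diaphragm LECs. The remaining diaphragm library, of mouse 4 of the angII group (8 months), took the place of mouse 12.

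Glucocorticoids enter the cell and bind the glucocorticoid receptor, which leaves its chaperone complex, moves to the nucleus and binds response elements beside its target genes. The mineralocorticoid receptor binds the same elements and responds to aldosterone, whose secretion is stimulated by angiotensin II, and to glucocorticoids. The enzyme HSD11B1 regenerates active glucocorticoid inside the cell, and HSD11B2 inactivates it, which is how aldosterone-selective tissues such as the distal nephron keep glucocorticoid away from the mineralocorticoid receptor.

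The response element is an inverted repeat of a short half-site. It was searched on both strands of the RefSeq promoter windows of GRCm38.p6, each from 250 bases before to 50 bases after an annotated start, of which 15 belonged to 7 of the 10 genes. No window was listed for Nr3c1, Zbtb16 or Hsd11b2. The full element with letters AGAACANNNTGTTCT was in 1 of the 15 windows, at Sgk1, and in 0.00913% of all 32851 windows. Its half-site AGAACA, which also matches inside the full element, was in 4 of the 15, at Sgk1 and Tsc22d3, and in 19% of all. The E-box CACGTG, the element of the circadian clock, was in 3 of the 15, at Fkbp5, Per1 and Sgk1, and in 7.15% of all. The cAMP response element TGACGTCA was in 0 of the 15 and in 1.79% of all, and the TATA box TATAAA was in 2 windows of Sgk1 and in 13.6% of all. For each of 4 targets 1 match is shown 5′ to 3′ on the strand of the gene, with the matched letters in capitals. The windows of Per1 and Fkbp5 held neither the full response element nor its half-site, so their E-box is shown. Coordinates are those of the 30 bases shown, and distances are from the first matched letter to the start. The bases of Sgk1 lie at chr10:21993694-21993723 (plus strand, match 189 bases before the start) and those of Tsc22d3 at chrX:140600690-140600719 (minus strand, match 185 bases before). Those of Per1 lie at chr11:69098771-69098800 (plus strand, match 166 bases before) and those of Fkbp5 at chr17:28486301-28486330 (minus strand, match 169 bases before).
Sgk1 response element: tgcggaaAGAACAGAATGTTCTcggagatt
Tsc22d3 half-site: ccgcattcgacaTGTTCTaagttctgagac
Per1 E-box: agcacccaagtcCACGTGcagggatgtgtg
Fkbp5 E-box: gcaagggccagaCACGTGggcagcggtgaa
A match of letters is a description of the window, and binding of a receptor was not measured.

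Values are TPM, the abundance of a transcript per length and per total of its library, so levels of different genes can be set side by side. The number of reads behind a value is unknown. As a rough measure of each library, the genes that reached 1 TPM were counted and are called detected genes here. Their number ranged from 16131 to 25896 in heart LECs, 15076 to 21913 in heart BECs, 12924 to 23691 in diaphragm LECs, 13020 to 19306 in cardiomyocytes. In diaphragm LECs there were 20062 to 23691 with angII and 12924 to 18116 in ctrl, without overlap. The summed TPM of 4 lymphatic markers (Prox1, Lyve1, Flt4, Pdpn) was 1582 to 2540 in heart LECs, 4092 to 6597 in diaphragm LECs and at most 129 in heart BECs, and that of 4 cardiomyocyte markers (Myh6, Tnnt2, Actn2, Ttn) was 3208 to 9698 in the cardiomyocyte libraries. The cardiomyocyte libraries also held 2030 to 3978 TPM of 5 fibroblast markers and 535 to 966 TPM of 5 blood endothelial markers, so their values are those of a preparation that contains other heart cells. The endothelial sum was mostly Cd36 (median 542 TPM), beside 139 for Pecam1, 53.7 for Flt1, 49.8 for Nos3 and 28.7 for Cdh5. It is not a measure of the share of endothelial cells. In such bulk RNA, fewer cells of a type and less RNA per cell cannot be told apart.

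Of the receptors, Nr3c1 was transcribed at high and even levels in the endothelium, and Nr3c2 at lower and more variable ones. Nr3c1 averaged 149 ± 20.7 TPM (SD, n = 12) in diaphragm LECs, 148 ± 9.05 in heart BECs, 123 ± 21.8 in heart LECs and only 45.6 ± 7.20 in cardiomyocytes. The cardiomyocyte libraries (32.7 to 57.6 TPM) lay below every endothelial library (87.6 to 187 TPM). The first 3 populations overlapped.

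Nr3c2 had the order diaphragm LECs (29.5 ± 14.2 TPM), heart LECs (15.8 ± 7.77), heart BECs (8.81 ± 3.73) and cardiomyocytes (3.79 ± 1.74), with overlapping ranges between neighbours. In ctrl libraries it stood at 32.8, 14.5, 4.00 and 18.2 TPM in heart LECs, and at 20.9, 15.0, 30.8 and 28.1 TPM in diaphragm LECs. Heart LECs of the ctrl group thus spread over a wider range than the diaphragm LECs of the same mice. The angII group had the reverse order, with 10.57 to 14.17 TPM for heart LECs and 18.02 to 71.21 TPM for diaphragm LECs. With angII+VEGFC the heart LECs again had the wider range, 11.47 to 25.45 TPM beside 25.06 to 30.56 TPM. Over all 12 libraries the coefficient of variation was nearly equal, 49% for heart LECs and 48% for diaphragm LECs.

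The target genes reached very different levels. Sgk1, a kinase that regulates ion channels and transporters and is a target of both receptors, was the most abundant, at 1500 ± 311 TPM in heart BECs, 717 ± 141 in diaphragm LECs, 716 ± 191 in heart LECs and 209.6 ± 48.3 in cardiomyocytes (SD, n = 12 each). Its heart LECs and diaphragm LECs did not differ beyond their spread. Tsc22d3, which encodes the anti-inflammatory protein GILZ, averaged 322 ± 103 TPM in heart BECs, 253 ± 87.4 in heart LECs, 155 ± 39.5 in diaphragm LECs and, lowest, 119.9 ± 31.1 in cardiomyocytes. Both genes had their highest mean in heart BECs and their lowest in the cardiomyocyte preparation.

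Klf9, a Krüppel-like transcription factor induced by glucocorticoids, had nearly equal means in the endothelium (94.0 ± 23.6 TPM in diaphragm LECs, 89.9 ± 16.9 in heart BECs, 84.9 ± 27.2 in heart LECs) and 39.2 ± 13.7 TPM in cardiomyocytes. Fkbp5, a co-chaperone that lowers the hormone affinity of the glucocorticoid receptor and so closes a feedback loop, averaged 32.8 ± 16.3 TPM in diaphragm LECs, 24.5 ± 11.4 in heart LECs, 13.9 ± 4.58 in heart BECs and 10.4 ± 5.52 in cardiomyocytes. Per1, a clock component, averaged 19.8 ± 8.50 TPM in heart BECs, 13.0 ± 5.66 in heart LECs, 9.89 ± 4.28 in diaphragm LECs and 6.45 ± 2.70 TPM in cardiomyocytes. The endothelial ranges of these 3 genes overlapped between neighbouring populations.

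Zbtb16, a zinc finger repressor also called PLZF, was low, at 10.3 ± 8.49 TPM in heart BECs, 6.43 ± 2.95 in diaphragm LECs, 5.35 ± 3.38 in heart LECs and 3.96 ± 1.10 in cardiomyocytes, with all ranges overlapping. Hsd11b1 averaged 44.1 ± 23.9 TPM in heart LECs, 33.6 ± 9.98 in diaphragm LECs, 31.2 ± 8.80 in cardiomyocytes and 21.8 ± 28.0 in heart BECs. Hsd11b2 was listed at 0 in all 12 heart LEC libraries and reached at most 1.38 TPM in heart BECs, 0.42 in diaphragm LECs and 0.461 in cardiomyocytes. It passed the filter of 1 TPM in at least 3 libraries in no population and was not tested, whereas the other 9 genes passed in all 4. In GRCm38 the most abundant target, Sgk1, spans chr10:21882184-21999903 (plus strand), Tsc22d3 chrX:140539528-140600659 (minus), Fkbp5 chr17:28399094-28517527 (minus), Per1 chr11:69095217-69109960 (plus), Klf9 chr19:23141226-23168134 (plus), Zbtb16 chr9:48654297-48836222 (minus) and Hsd11b1 chr1:193221634-193264075 (minus). The annotation places other genes within or over the spans of Fkbp5, Klf9, Nr3c2 and Hsd11b1, the last of which overlaps Lamb3, and the quantification is not stated to use strand, so reads of such neighbours cannot be told apart from theirs. The plot of the 9 tested genes by library shows these levels with the treatment groups side by side.

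**Figure D1:**
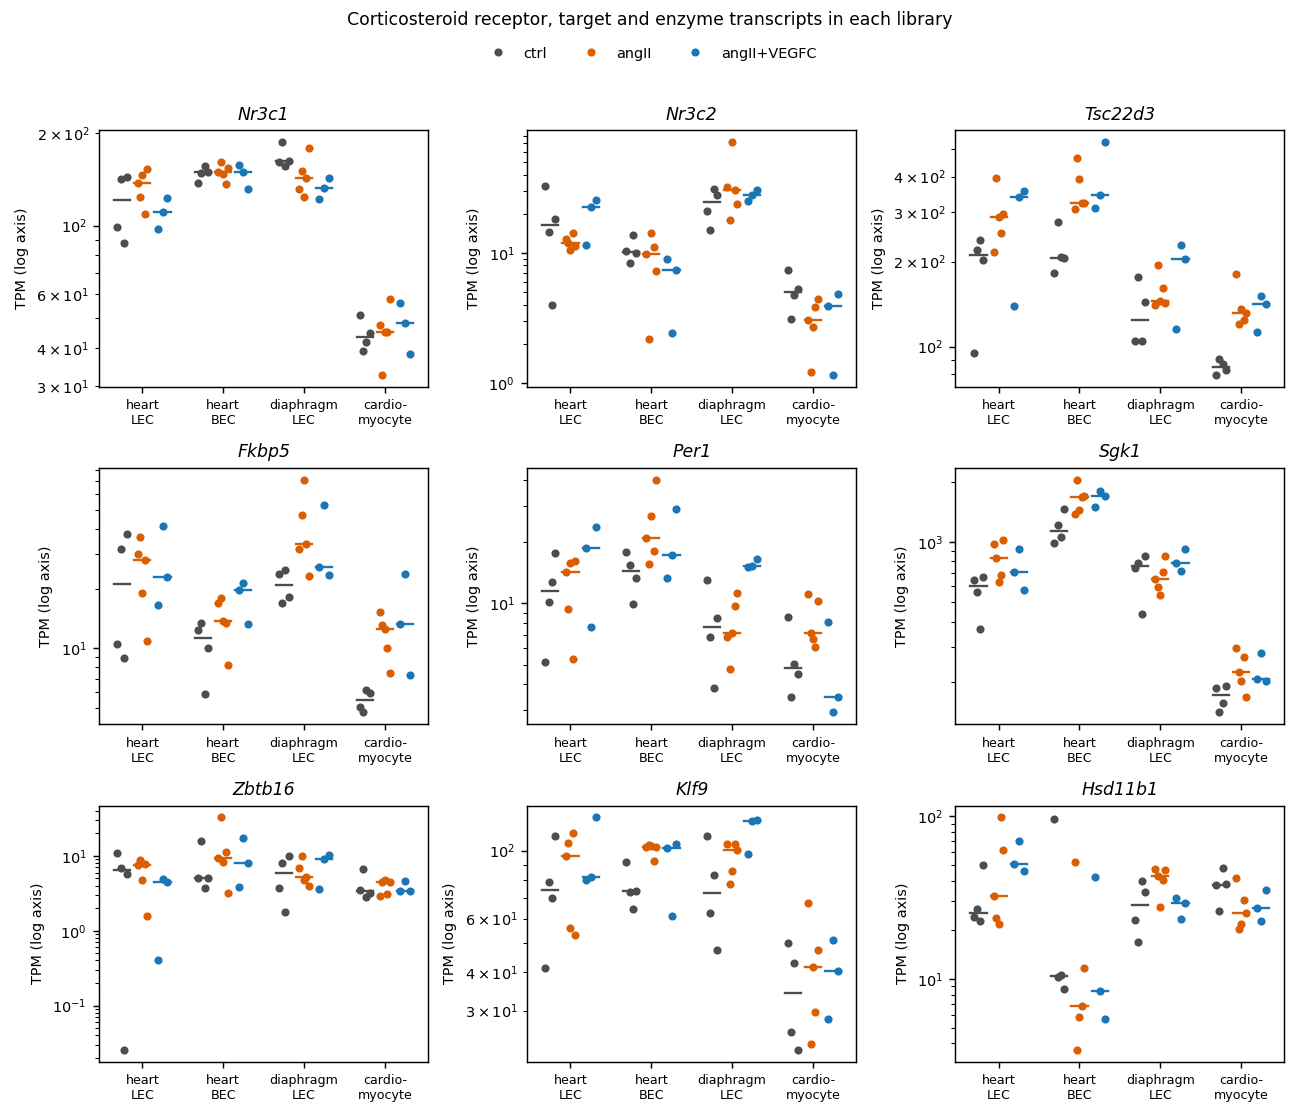
TPM of the 9 tested genes in each of the 48 libraries, on log axes, by cell population and treatment group. Points are libraries, bars are group medians; the cardiomyocyte points of Nr3c1 (32.7 to 57.6 TPM) lie below all endothelial points, and the heart BEC points of Hsd11b1 fall into a low band and 3 high libraries, 1 in each group.

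Within mice, the lymphatic and the blood endothelium of the heart differed in 7 of the 9 tested genes at an adjusted p under 0.05, 2 higher and 5 lower in heart LECs (limma on log2(TPM + 1), mouse as a block, 12 mice), beside 25.7% of all 27759 genes tested. Differences are on the log2 scale with their standard error. The receptor Nr3c1 was lower in heart LECs by -0.29 (SE 0.087, adjusted p = 0.0197) and in all 12 mice, whereas Nr3c2 was at 0.77 (SE 0.28, adjusted p = 0.0535), higher in 10 of 12 mice, and did not pass.

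Of the targets, Sgk1 had the difference with the smallest p, -1.09 (SE 0.086, adjusted p = 1.26e-08), lower in heart LECs in 12 of 12 mice. Tsc22d3 was lower by -0.37 (SE 0.10, adjusted p = 0.0103) in 11 of 12 mice, Per1 by -0.60 (SE 0.20, adjusted p = 0.0305) in 9 and Zbtb16 by -0.85 (SE 0.25, adjusted p = 0.0188) in 10. Fkbp5 went the other way, with 0.70 (SE 0.17, adjusted p = 0.00411) and higher values in heart LECs in 10 of 12 mice. Klf9 was at -0.13 (SE 0.14, adjusted p = 0.508). The targets of one receptor family were thus not uniformly higher in either endothelium. Without the mouse block Tsc22d3 (adjusted p = 0.0810) and Zbtb16 (0.111) did not pass and Nr3c2 did (0.0440), and in the 4 ctrl mice alone 1 of the 9 genes passed. The call of Per1 was lost without any 1 of mice 1, 6, 12, 14 or 18, at -0.51 to -0.59.

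The largest difference was that of Hsd11b1, 1.52 higher in heart LECs (SE 0.38, adjusted p = 0.00554) and higher in 10 of 12 mice. In ctrl mice alone the difference of Hsd11b1 was 0.70 and did not pass (adjusted p = 0.482). Its heart BEC values were 96.0, 10.2, 10.5 and 8.61 TPM in ctrl, 52.1, 3.64, 5.80, 6.81 and 11.6 TPM in angII and 42.1, 8.35 and 5.67 TPM in angII+VEGFC. One library of each group, from mice 1, 3 and 2, stood apart. The same 3 libraries had the highest fibroblast marker sums (Col1a1, Dcn, Pdgfra, Lum, Tcf21) of the heart BECs, 3562, 2117 and 2287 TPM, the next highest being 864 TPM, and none of these markers was at 0 in any heart BEC library. Without these 3 mice, an alternative added after the values were seen, the difference of Hsd11b1 was 2.29 (adjusted p = 1.84e-06), that of Nr3c1 was -0.24 (adjusted p = 0.0731) and that of Tsc22d3 was -0.21 (adjusted p = 0.0729). Heart LECs held 653 to 1484 TPM of the same markers, mostly Dcn (median 1019 TPM, and 437 TPM in heart BECs). Pdgfra was also higher there at the median (57.2 TPM, and 6.98 in heart BECs). Col1a1 (7.31 and 16.5 TPM), Lum (33.0 and 90.6) and Tcf21 (4.12 and 9.73) were lower in heart LECs. The part of fibroblast RNA in the differences of Hsd11b1, Nr3c1 and Tsc22d3 was not tested.

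**Figure D2:**
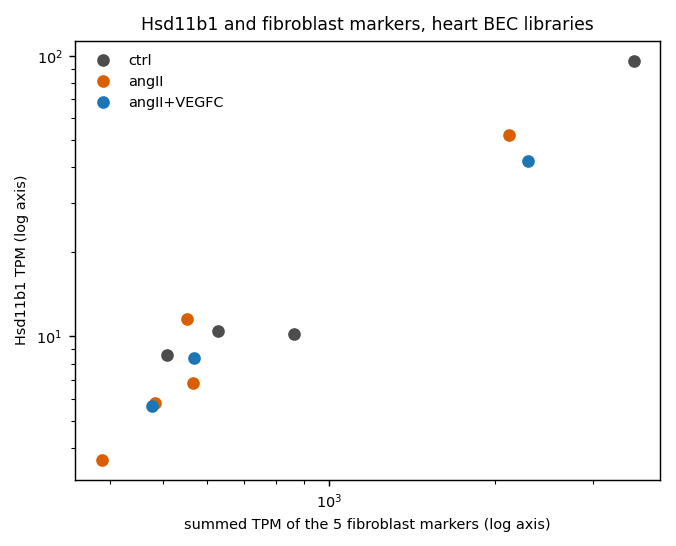
Hsd11b1 TPM of the 12 heart BEC libraries against the summed TPM of 5 fibroblast markers, both axes logarithmic, coloured by treatment group. The 3 libraries at 42.1 to 96.0 TPM of Hsd11b1 are those with 2117 to 3562 TPM of fibroblast markers, and the other 9 lie at 3.64 to 11.6 TPM and at most 864 TPM of markers.

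Between the LECs of heart and diaphragm, 2 of the 9 genes passed, 1 higher and 1 lower in the heart, beside 5.13% of 26878 genes tested (11 mice). Tsc22d3 was higher in heart LECs by 0.62 (SE 0.11, adjusted p = 0.00126) in 10 of 11 mice. The receptor Nr3c1 was lower by -0.34 (SE 0.090, adjusted p = 0.0335) in 10 of 11 mice, and its call was lost without any 1 of mice 1, 2, 5, 8, 9, 15 or 18, at -0.29 to -0.35, and without the block (adjusted p = 0.0524). Nr3c2 was at -0.74 (SE 0.22, adjusted p = 0.0658), lower in 10 of 11 mice, and passed without mouse 1, at -0.88. The other 6 genes had adjusted p-values from 0.370 to 0.822, with differences of -0.45 for Zbtb16, -0.30 for Fkbp5, -0.13 for Klf9, -0.04 for Sgk1, 0.29 for Per1 and 0.33 for Hsd11b1. Sgk1, which had the largest difference between both endothelia of the heart among the targets, thus had a difference between the LECs of the 2 organs that was smaller than its standard error of 0.10.

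In the cardiomyocyte preparation all 9 genes differed from heart BECs of the same mice, beside 78.3% of 22246 genes tested, whose median was -0.64. Sgk1 was lower by -2.84 (SE 0.093, adjusted p = 2.76e-14), Nr3c1 by -1.69 (SE 0.079, adjusted p = 1.77e-12), Per1 by -1.48 (SE 0.17, adjusted p = 2.43e-07), Tsc22d3 by -1.39 (SE 0.092, adjusted p = 1.82e-10), Klf9 by -1.23 (SE 0.14, adjusted p = 2.95e-07) and Nr3c2 by -0.997 (SE 0.14, adjusted p = 6.23e-06). In this fit these 6 lay below the median gene by more than their standard errors, and they stayed called in every alternative. In size, the smallest differences over the alternatives were -2.30 (Sgk1), -0.92 (Nr3c1), -0.81 (Per1), -0.73 (Tsc22d3), -0.41 (Klf9) and -0.39 (Nr3c2). Zbtb16 was lower by -0.93 (SE 0.21, adjusted p = 0.000579), also below the median gene by more than its standard error. Under quantile normalization it was at -0.36 (adjusted p = 0.125). Fkbp5 was lower by -0.45 (SE 0.13, adjusted p = 0.00421), less than the median gene, and under quantile normalization its difference turned to 0.24 (adjusted p = 0.105). Hsd11b1 was higher by 1.16 (SE 0.29, adjusted p = 0.00160) in 9 of 12 mice, and by 1.02 to 1.88 over the alternatives. The exceptions were mice 1, 2 and 3, whose heart BEC libraries had the highest fibroblast marker sums. The cardiomyocyte libraries held fibroblast markers as well, and the part of fibroblast RNA was not tested. These preparations were sequenced in a batch of their own and were not sorted, so cell type, batch and isolation cannot be told apart.

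The question of the treatment comparisons was whether the receptors and their targets moved with angiotensin II and with added VEGFCc156s. At an adjusted p under 0.05 the count of called genes was 0 of 9 in each of the 12 comparisons (limma). The groups of 1 population share libraries between comparisons, so their values are set side by side and not counted as separate evidence. Of all genes tested, the share called at that threshold was 0.0261% in heart LECs and 0.0892% in cardiomyocytes for angII against ctrl, 0.663% in cardiomyocytes for angII+VEGFC against ctrl, and 0% in the other 9 comparisons. At an unadjusted p under 0.05, heart LECs had 2 of 9 genes for angII against ctrl (10.9% of all genes), 1 for angII+VEGFC against angII (10.8%) and 0 for angII+VEGFC against ctrl (4.94%). Heart BECs had 4 (5.40%), 0 (2.59%) and 2 (5.51%), diaphragm LECs 2 (15.3%), 1 (8.78%) and 2 (1.32%), and cardiomyocytes 3 (9.85%), 0 (2.41%) and 2 (12.9%). All of these genes were higher in the first group named, except Zbtb16 in heart LECs for angII+VEGFC against angII.

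The 6 target genes had positive differences for angII against ctrl in 6 of 6 cases in heart LECs, heart BECs and cardiomyocytes and in 5 of 6 in diaphragm LECs. Their median was 0.55 in heart LECs (all genes 0.23), 0.62 in heart BECs (all genes -0.06), 0.51 in cardiomyocytes (all genes 0.12) and 0.28 in diaphragm LECs (all genes 0.28). For angII+VEGFC against angII the differences were positive in 1 of 6 genes in heart LECs, heart BECs and cardiomyocytes and in 4 of 6 in diaphragm LECs. Their median in that comparison was -0.25 in heart LECs (all genes -0.37), -0.17 in heart BECs (all genes 0.03), -0.12 in cardiomyocytes (all genes -0.03) and 0.09 in diaphragm LECs (all genes -0.21). In heart LECs the median of the targets thus lay above that of all genes in both comparisons, and in the diaphragm their median for angII against ctrl was that of any gene. The signs are those of the fit with covariates. Without adjustment, the angII+VEGFC mean in heart LECs was 1.09 (Fkbp5), 1.37 (Per1) and 1.14 (Klf9) times that of angII, and the other targets were lower. In heart BECs it was 1.09 (Tsc22d3), 1.29 (Fkbp5) and 1.01 (Sgk1) times that of angII, and the other targets were lower. The share of all genes with a positive sign is not given. The plot of the differences from ctrl shows every gene with its standard error.

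**Figure D3:**
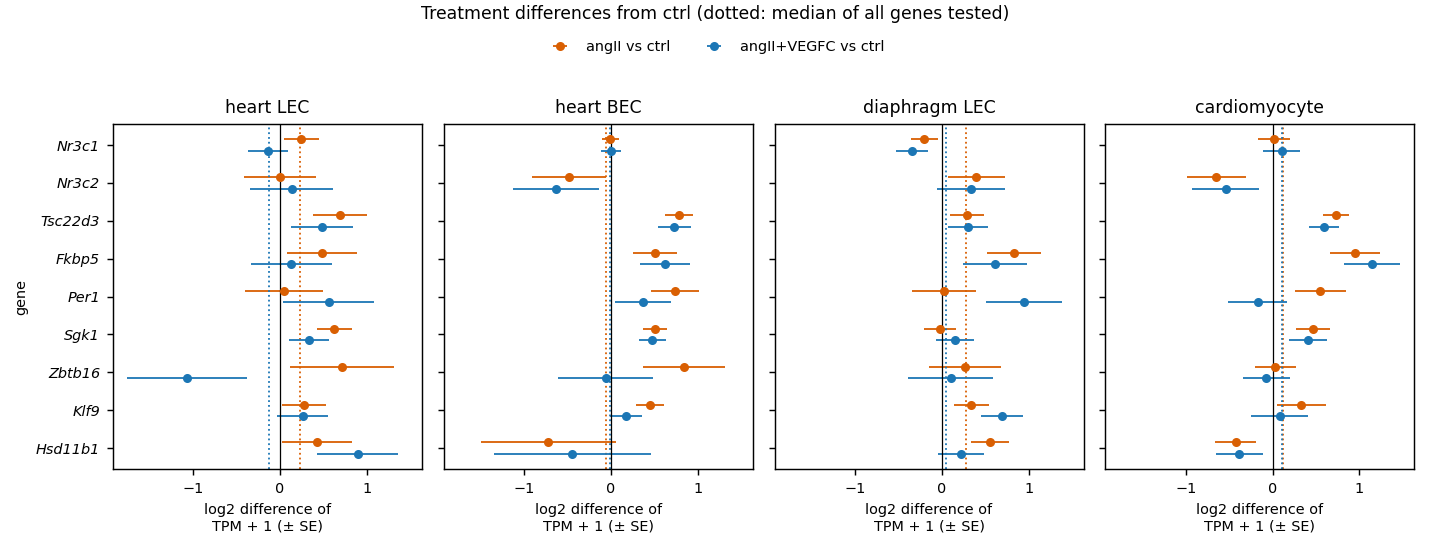
Difference from ctrl of each tested gene in log2(TPM + 1), for angII (orange) and angII+VEGFC (blue), in the 4 cell populations. Points are limma estimates and lines their standard errors, and dotted lines mark the median of all genes tested; Tsc22d3 and Fkbp5 of cardiomyocytes lie at 0.59 to 1.15 and the dotted lines there at 0.11 and 0.12.

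Tsc22d3 in cardiomyocytes came nearest to the threshold. It stood at 79.4, 90.8, 86.7 and 82.9 TPM in ctrl, 181, 120.4, 136, 124 and 132 TPM in angII and 113, 152 and 141 TPM in angII+VEGFC. Every treated library lay above every ctrl library. The share of all genes tested whose groups do not overlap was not counted. Here and below such a separation is therefore a description that cannot be set beside that of other genes. The difference was 0.73 for angII against ctrl (SE 0.15, adjusted p = 0.0812) and 0.59 for angII+VEGFC against ctrl (SE 0.17, adjusted p = 0.153).

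Fkbp5 had the largest differences among the cardiomyocyte values. Its ctrl libraries held 5.05, 4.73, 6.15 and 5.92 TPM, its angII libraries 15.3, 13.2, 12.5, 9.98 and 7.47 TPM and its angII+VEGFC libraries 13.3, 23.6 and 7.36 TPM. Again no treated library overlapped ctrl, and the group means were 2.14 and 2.70 times that of ctrl. The difference was 0.95 for angII (SE 0.28, adjusted p = 0.214) and 1.15 for angII+VEGFC (SE 0.32, adjusted p = 0.135).

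Whether these genes passed depended on the fit. Without cardiomyocyte angII+VEGFC replicate 3 (mouse 8), which had 19306 detected genes where the next library had 15816, 2 genes passed for angII against ctrl, Tsc22d3 (0.73) and Fkbp5 (0.98), and Fkbp5 passed for angII+VEGFC against ctrl (1.52). With the count of detected genes added as a covariate, Tsc22d3 (adjusted p = 0.0103) and Fkbp5 (adjusted p = 0.0374) passed for angII against ctrl. With a surrogate variable, as the model of the study also had, Tsc22d3 passed for angII against ctrl (adjusted p = 0.0224) and Fkbp5 for angII+VEGFC against ctrl (adjusted p = 0.0377). Over all alternatives the adjusted p for angII against ctrl was 0.0103 to 0.346 for Tsc22d3 and 0.0357 to 0.705 for Fkbp5. For angII+VEGFC against ctrl it was 0.0498 to 0.412 for Tsc22d3 and 0.00802 to 0.420 for Fkbp5. The summed TPM of 4 macrophage markers (Cd68, Adgre1, Csf1r, Ptprc), of which none was at 0, was 58.4 to 65.3 in ctrl, 91.9 to 185 in angII and 74.4 to 186 in angII+VEGFC, also without overlap with ctrl. The highest library was that of mouse 3 in angII and of mouse 6 in angII+VEGFC, for Tsc22d3, for Fkbp5 and for the macrophage sum alike. This was not particular to these genes, since Sgk1 and Klf9 were highest in the same libraries. Per1 and Hsd11b1 were highest in mouse 3 of angII only, Zbtb16 in mouse 6 of angII+VEGFC only, and Nr3c1 and Nr3c2 in neither. The fibroblast sums were 2030 to 2838, 2547 to 3978 and 2892 to 3943 TPM in the same order. The part of other heart cells in these differences was not tested.

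Sgk1 in cardiomyocytes was at 185, 141, 156 and 190.1 TPM in ctrl, 296, 223, 203, 265 and 169 TPM in angII and 207, 277 and 202 TPM in angII+VEGFC. The angII+VEGFC libraries lay above ctrl, and the angII libraries overlapped it in 1 mouse. The difference for angII against ctrl was 0.46 (SE 0.19, adjusted p = 0.441), and 0.27 under quantile normalization. Per1 for angII+VEGFC against angII was at -0.72 (SE 0.34, adjusted p = 1.00), from -1.37 without mouse 2 to -0.45 without mouse 3. The receptor Nr3c2 had cardiomyocyte values of 7.33, 3.08, 4.72 and 5.30 TPM in ctrl, 1.20 to 4.40 TPM in angII and 1.15 to 4.85 TPM in angII+VEGFC. The groups overlapped, and Nr3c2 was not among the genes at an unadjusted p under 0.05 in these comparisons.

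In heart BECs the libraries of Tsc22d3 held 183, 277, 208 and 205 TPM in ctrl, 306, 464, 391, 323 and 321 TPM in angII and 309, 344 and 529.8 TPM in angII+VEGFC. As in cardiomyocytes, all treated libraries lay above all ctrl libraries, with means 1.65 and 1.81 times that of ctrl. The difference was 0.78 for angII (SE 0.17, adjusted p = 0.671) and 0.73 for angII+VEGFC (SE 0.19, adjusted p = 0.761). Within sequencing batch 1 and batch 2 the angII difference was 0.79 and 0.70. The angII difference, with its sign, lay above that of 99.2% of all genes tested in heart BECs, although no gene of that comparison passed the adjusted threshold.

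Sgk1 in heart BECs was at 984, 1215, 1062 and 1464 TPM in ctrl, 1385, 2054, 1451, 1685 and 1701 TPM in angII and 1502, 1798 and 1699 TPM in angII+VEGFC. Only the highest ctrl library, of mouse 11, reached into the angII range. The differences were 0.51 for angII (SE 0.14, adjusted p = 0.698; within batches 0.56 and 0.48) and 0.48 for angII+VEGFC (SE 0.16, adjusted p = 0.857), the latter being 0.29 without mouse 6.

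Klf9 in heart BECs held 91.6, 73.5, 64.4 and 73.7 TPM in ctrl and 103, 104, 104, 92.9 and 103 TPM in angII, without overlap, and 102, 61.3 and 106 TPM in angII+VEGFC. The angII difference was 0.45 (SE 0.16, adjusted p = 0.840), with 0.42 and 0.41 within the batches. Per1 in heart BECs was at 17.9, 15.5, 9.86 and 13.3 TPM in ctrl and 21.0, 15.5, 26.8, 18.1 and 40.4 TPM in angII. Its angII difference of 0.74 (SE 0.28, adjusted p = 0.862) was 1.04 within batch 1 and 0.21 within batch 2, and the groups overlapped. For angII+VEGFC against angII the smallest p in heart BECs was that of Zbtb16, at -0.91 (SE 0.57, adjusted p = 1.00), which ranged from -1.77 to -0.41 with 1 library left out (lowest without mouse 6, highest without mouse 2, and -0.43 without mouse 15) and was -0.26 with no covariates.

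Without the 3 libraries of high fibroblast markers the member counts of the heart BEC comparisons stayed at 0. The receptor Nr3c1 had the smallest coefficient of variation of the 9 genes there (6.10%), 138 to 157 TPM in ctrl, 136 to 161 TPM in angII and 131 to 158 TPM in angII+VEGFC, and its differences from ctrl were smaller than their standard errors of 0.099 (angII) and 0.115 (angII+VEGFC).

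In heart LECs the angII differences of Sgk1 and Tsc22d3 were close in size to those in heart BECs, and the libraries were more scattered. They lay above 74.2% (Sgk1) and 77.3% (Tsc22d3) of all genes tested there, fewer than in heart BECs. The summed TPM of 5 blood endothelial markers (Nos3, Flt1, Cd36, Cdh5, Pecam1), none of which was at 0, was 890.3 to 1230 in the ctrl heart LECs. It was 1274 to 2000 with angII and 1120 to 1228 with angII+VEGFC, so angII lay above ctrl without overlap. Of these markers Cdh5 and Pecam1 are pan-endothelial, and Pecam1 alone had a median of 492 TPM in heart LECs and 451 TPM in diaphragm LECs. The sum therefore also holds RNA of the LECs themselves. Sgk1 and Tsc22d3 were more abundant in heart BECs, whose ctrl libraries held 3732 to 5031 TPM of these markers, and the part of blood endothelial RNA was not tested. Sgk1 stood at 646, 561, 368 and 667 TPM in ctrl, 983, 830.2, 629.6, 681 and 1027 TPM in angII and 705, 920.3 and 579 TPM in angII+VEGFC. Of the 5 angII libraries 4 lay above all ctrl libraries. The angII difference was 0.62 (SE 0.20, adjusted p = 0.300), with 0.82 within batch 1 and 0.30 within batch 2. It was 0.34 without mouse 9, the lowest ctrl library, and up to 0.82 with another library left out.

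Tsc22d3 in heart LECs was at 94.6, 220.3, 239 and 202 TPM in ctrl, 215, 394, 289, 253 and 294 TPM in angII and 139, 339 and 355 TPM in angII+VEGFC. The groups overlapped through single libraries, mouse 1 being the lowest of ctrl and mouse 2 the lowest of angII+VEGFC. The angII difference was 0.69 (SE 0.31, adjusted p = 0.437), with 0.81 within batch 1 and 0.58 within batch 2. Without mouse 1 it was 0.36, it reached at most 1.03 with another library left out, and it was 1.34 with the count of detected genes as a covariate. These libraries differed in their detected genes, 16131 to 24086 in ctrl and 19957 to 25896 in angII.

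Zbtb16 had the only negative difference with an unadjusted p under 0.05, for angII+VEGFC against angII in heart LECs, at -1.79 (SE 0.71, adjusted p = 0.429). The angII libraries held 7.67, 8.77, 4.83, 7.69 and 1.57 TPM and the angII+VEGFC libraries 0.405, 4.91 and 4.51 TPM, while the ctrl libraries spanned 0.0254 to 11.0 TPM. The difference was 0.22 within batch 1, where the angII+VEGFC group had 1 library, and -1.73 within batch 2. It was -0.85 with no covariates, -0.89 with a surrogate variable, -1.04 under quantile normalization, -2.86 with a pseudocount of 0.1 and 0.05 with the count of detected genes added as a covariate. Hsd11b1 in heart LECs was at 24.0, 26.8, 22.7 and 50.3 TPM in ctrl, 32.2, 23.5, 21.8, 98.7 and 61.7 TPM in angII and 50.7, 70.5 and 45.8 TPM in angII+VEGFC. Its difference for angII+VEGFC against ctrl, the smallest p of that comparison, was 0.89 (SE 0.46, adjusted p = 0.915), and 0.48 without mouse 6 of the angII+VEGFC group.

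In diaphragm LECs, lymphatic cells outside the heart, the genes with an unadjusted p under 0.05 were partly others. Per1 was at 13.0, 6.83, 3.85 and 8.48 TPM in ctrl, 6.86, 4.77, 7.14, 9.66 and 11.3 TPM in angII and 15.0, 15.3 and 16.5 TPM in angII+VEGFC. The 3 angII+VEGFC libraries lay above all others, at 1.97 times the mean of angII and 1.94 times that of ctrl. The differences were 0.92 from angII (SE 0.43, adjusted p = 0.567; within batches 0.82 and 1.09) and 0.95 from ctrl (SE 0.44, adjusted p = 1.00; within batches 0.98 and 0.96). Batch 1 held 1 of the 3 angII+VEGFC libraries.

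Fkbp5 in diaphragm LECs was at 23.7, 16.9, 24.9 and 18.2 TPM in ctrl, 31.7, 47.4, 71.2, 33.8 and 23.1 TPM in angII and 25.7, 52.8 and 23.6 TPM in angII+VEGFC. All but 1 of the angII libraries lay above ctrl. The difference was 0.83 (SE 0.31, adjusted p = 0.299), and 0.61 and 1.15 within the batches. It was 0.33 with a surrogate variable and 0.12 with the count of detected genes as a covariate, which differed between these groups. Hsd11b1 for angII against ctrl was at 0.56 (SE 0.22, adjusted p = 0.304), from 16.8 to 40.1 TPM in ctrl to 27.5 to 47.2 TPM in angII. In this comparison the median of all genes was 0.28, and the angII libraries listed more genes than ctrl without overlap.

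Klf9 in diaphragm LECs was at 111, 62.7, 83.2 and 47.5 TPM in ctrl and 97.3, 125 and 126 TPM in angII+VEGFC, a difference of 0.69 (SE 0.24, adjusted p = 1.00). The receptor Nr3c1 ran the other way, with 161, 187, 157 and 163 TPM in ctrl, 132, 150.0, 124, 142 and 178 TPM in angII and 122, 132 and 142 TPM in angII+VEGFC. The angII+VEGFC libraries lay below ctrl without overlap, although Nr3c1 was not among the genes at an unadjusted p under 0.05 in that comparison.

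Whether a treatment difference itself differed between the endothelial populations was tested in 1 fit of the 36 endothelial libraries, in 6 comparisons, and 0 of the 9 genes passed in any (limma). This fit had no mouse block. Several libraries of 1 mouse thus entered as independent, and the standard errors and p-values ignore that pairing. The smallest p-values were those of Sgk1 for angII against ctrl, with a difference 0.64 larger in heart than in diaphragm LECs (SE 0.26, adjusted p = 0.429) and 0.56 smaller in diaphragm LECs than in heart BECs (-0.56, SE 0.26, adjusted p = 0.415). For angII+VEGFC against angII, the difference of Per1 in diaphragm LECs exceeded that in heart BECs by 1.22 (SE 0.57, adjusted p = 0.684). None of these was past the threshold, so the populations were not shown to respond differently.

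The other genes of the pathway were described from lists. Of 30 further glucocorticoid targets, 26 to 29 were tested in a population. For angII against ctrl 3 of 27 were higher and 0 lower at an unadjusted p under 0.05 in heart LECs (10.9% of all genes passed), 2 and 1 of 26 in heart BECs (5.40%), 0 and 0 of 29 in diaphragm LECs (15.3%) and 2 and 1 of 27 in cardiomyocytes (9.85%). Their median was 0.25 in heart LECs (all genes 0.23), 0.05 in heart BECs (all genes -0.06), 0.08 in diaphragm LECs (all genes 0.28) and 0.12 in cardiomyocytes (all genes 0.12). The median of the wider list thus lay close to that of all genes in the 3 heart populations and below it in the diaphragm. Ddit4, an inhibitor of mTORC1, had the smallest p of the list in heart BECs, at 0.87 (SE 0.24, adjusted p = 0.701). Anxa1, which encodes the anti-inflammatory annexin A1, had the smallest p in cardiomyocytes, at 0.85 (adjusted p = 0.200), and Errfi1, an inhibitor of EGF receptor signalling, that in heart LECs, at 0.64 (adjusted p = 0.345).

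The single call of these lists in a treatment comparison was Pdk4, a kinase that shuts off pyruvate dehydrogenase and is induced by glucocorticoids and fasting. In cardiomyocytes it was lower in angII+VEGFC than in ctrl, with a log2 difference of -1.50 (SE 0.32, adjusted p = 0.0480). The call was lost in 10 of 12 fits with 1 library left out (all but those without mouse 14 or mouse 8), with differences of -2.01 to -1.16 over the 12. It was also lost with a pseudocount of 0.1, with no filter, with no covariates and with only both groups fitted, and the adjusted p over all alternatives, added after the data were seen, ranged from 0.0132 to 0.212. Its ctrl libraries held 53.9, 86.6, 30.7 and 39.8 TPM, its angII libraries 66.5, 26.3, 18.4, 14.2 and 32.4 TPM and its angII+VEGFC libraries 20.4, 26.5 and 14.9 TPM. The angII+VEGFC group lay below ctrl, opposite in sign to Tsc22d3 and Fkbp5 in the same libraries. Lpin1, a phosphatase of lipid synthesis and a glucocorticoid target as well, was at -1.06 (SE 0.26, adjusted p = 0.0874).

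Neither the 10 tested genes of the receptor chaperones nor the 9 coregulators had a call in a treatment comparison. In the heart, 1 chaperone was higher and 4 were lower in LECs than in BECs, and 1 coregulator was higher and 5 were lower, beside 25.7% of all genes called in either direction (4074 higher and 3061 lower of 27759). Of the clock genes, Per2 had the smallest p for angII against ctrl in heart LECs, at 1.35 (SE 0.59, adjusted p = 0.422), and in heart BECs, at 1.05 (SE 0.44, adjusted p = 0.910). Of 15 immediate early genes, which tissue digestion induces, 11 were lower and 1 was higher in heart LECs than in heart BECs, in the same comparison with 25.7% of all genes called. For angII against ctrl the median of these genes was -0.16 in heart BECs and -0.14 in heart LECs, and Zfp36 had their smallest p, at -0.32 (adjusted p = 0.914) and -0.35 (adjusted p = 0.353). The part of digestion in the differences between populations was not tested.

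Because each mouse gave several populations, the values could be compared within animals. For each gene, the deviation of a library from the mean of its treatment group was taken on the log2(TPM + 1) scale and correlated between populations over 11 or 12 mice. The mean Pearson's r over the 6 pairs of populations was 0.54 for Zbtb16, 0.49 for Fkbp5 and 0.44 for Tsc22d3, beside a median of 0.07 over 14267 genes. It was 0.23 for Nr3c2, 0.19 for Sgk1, 0.18 for Per1 and Hsd11b1, 0.06 for Nr3c1 and -0.08 for Klf9. With the batch means also removed, the first 3 genes were at 0.52, 0.58 and 0.52. The 3 targets thus had higher means than the receptor Nr3c1. Of the 6 pairs of populations, Nr3c1 had r = 0.56 in heart and diaphragm LECs and -0.08 to 0.04 in the other 5.

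None of the 54 single correlations passed after adjustment (two-sided permutation tests, smallest adjusted p = 0.0901). For Tsc22d3 in heart LECs and heart BECs, r was 0.69 (permutation p = 0.0134, adjusted 0.121) and rho 0.80 (permutation p = 0.00292, adjusted 0.158) over 12 mice, and r was 0.61 without the 2 mice farthest from the median. The other pairs of endothelial populations had r = 0.75 and 0.69 for this gene, whereas the 3 pairs with cardiomyocytes had 0.02, 0.23 and 0.28. For Fkbp5 in diaphragm LECs and cardiomyocytes, r was 0.76 (permutation p = 0.00715, adjusted 0.0901) and rho 0.75 (permutation p = 0.0107, adjusted 0.186) over 11 mice, and r was 0.45 without the farthest 2. For Zbtb16 in heart and diaphragm LECs, r was 0.76 (permutation p = 0.00723, adjusted 0.0901) and rho 0.46 (permutation p = 0.154, adjusted 0.613), and r was 0.37 without the farthest 2, so that relation rested on those mice.

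Single animals show what lies behind the means. Mouse 6 of the angII+VEGFC group had the highest Fkbp5 of its group in all 4 populations, at 41.5 TPM in heart LECs, 21.5 in heart BECs, 52.8 in diaphragm LECs and 23.6 in cardiomyocytes. Mouse 5 of ctrl and mouse 15 of angII had Zbtb16 above the mean of their group in all 4 populations, at 16.1 and 32.9 TPM in heart BECs. Mouse 9 of ctrl had it below in all 4, down to 0.0254 TPM in heart LECs. Of the 12 mice, 5 lay on 1 side of their group mean in every population for Zbtb16, 4 each for Tsc22d3, Fkbp5 and Sgk1, 3 each for Nr3c2 and Per1, and 2 each for Nr3c1, Klf9 and Hsd11b1. The median over the 14267 genes was 2 mice, and 18.4% of genes had 4 or more. The heart libraries of mouse 12, which gave no diaphragm library, counted in 3 populations. The libraries of a mouse share its age and treatment, and the endothelial ones their batch, and the part of age in this agreement was not tested.

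**Figure D4:**
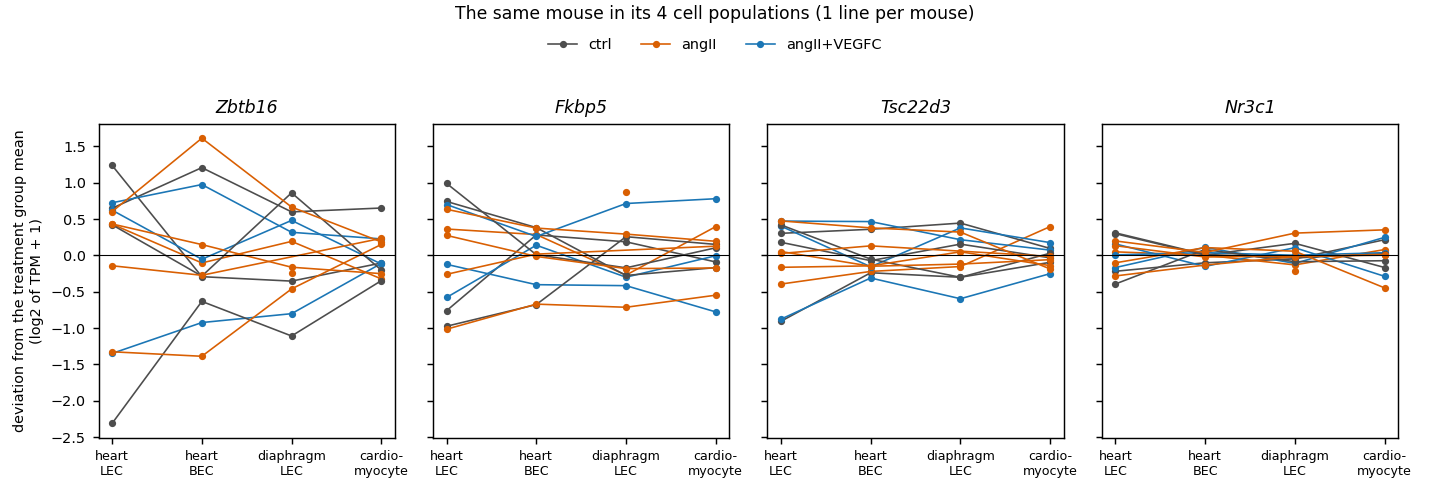
Deviation of each library from the mean of its treatment group, in log2(TPM + 1), for Zbtb16, Fkbp5, Tsc22d3 and Nr3c1, with 1 line for each mouse across the 4 cell populations and a single point for the diaphragm library of mouse 4. Lines of Zbtb16 span the widest range, Nr3c1 stays near 0, and mouse 6 (angII+VEGFC) runs above 0 for Fkbp5 throughout.

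Over the 48 libraries, with the mean of each population subtracted, the genes most like a target among 14258 searched were S1pr1 (r = 0.73), Depp1 (0.72) and Plod1 (0.70) for Tsc22d3, and Cdr2l (0.71), Plod2 (0.71) and Synpo (0.70) for Fkbp5. Those most like Per1 were Arhgef1 (0.63), Ambra1 (0.61) and Gtf3c1 (0.59), and those most like Klf9 included Rasip1 (0.90) and Rac1 (0.88). Among the 9 genes themselves the highest correlations by this measure were 0.48 for Tsc22d3 and Fkbp5, 0.45 for Tsc22d3 and Sgk1, and 0.43 for Fkbp5 and Klf9. The points share mice, batches and treatment groups.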

How the data were processed

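Sorted endothelial cells and pelleted cardiomyocytes were sequenced by the authors from Smart-Seq ultra low input cDNA with Nextera XT libraries. Reads were aligned to GRCm38 with STAR 2.5.3a and quantified with Salmon 0.12.0 on Ensembl release 95, per the labels and the methods of the study, and the deposited matrix holds TPM of 54752 genes, 54723 of which matched a symbol. TPM is normalized to transcript length and library total (997657 to 999929), so the depth behind a value is unknown and no counting interval is given. The authors tested counts with DESeq2, adjusting for age, batch and surrogate variables, and counts were not used here. A surrogate variable was added here only as an alternative.

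TPM values were transformed to log2(TPM + 1). Genes that reached 1 TPM in 3 or more of the 12 libraries were fitted within each population with limma 3.58.1 (trend) in R 4.3.3, all 3 groups in 1 model, with age and, for the endothelium, batch as covariates. p-values were adjusted over all genes (Benjamini-Hochberg, threshold 0.05). Fold changes on this scale understate changes of genes at low TPM. Populations were compared with the mouse as a fixed block, since the labels give libraries of 1 animal the same number; the treatment groups hold different mice. The p-values of these fits measure the spread between mice, whereas the interaction fit took the libraries of a mouse as independent.

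The members and the gene lists were chosen with earlier results of these data known. All 10 members are named. Tests are printed for members at an unadjusted p under 0.05, or for the 1 with the smallest p, and up to 3 genes with the smallest p from each further list. Cell type marker lists and lists of chaperones, coregulators, further targets of both receptors, steroid metabolism, clock and immediate early genes were described by counts and medians. Further mineralocorticoid-responsive genes and steroid metabolism genes had 0 calls in the treatment comparisons. Between heart LECs and heart BECs 3 of 10 tested mineralocorticoid-responsive genes were higher and 3 lower, and 1 of 7 steroid metabolism genes was higher and 2 were lower, beside 25.7% of all genes called. The fit was tested on simulated data made from these libraries. Correlations over mice used 100000 permutations. A gene among those most like Klf9 is not reported here. Alternatives were a pseudocount of 0.1, no filter, no covariates, 1 surrogate variable (iteratively re-weighted, computed in base R), the count of genes that reached 1 TPM added as a covariate, quantile normalization, only the 2 groups compared, ctrl mice only, other treatments of the mouse block and each library or mouse left out.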

Additional observations from a re-analysis of the deposited data

Results flagged for a closer look

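In the groups of 4 or 5 libraries, 73 combinations of gene and group were checked for 1 library that lies apart from the rest (a gap to the nearest library, divided by the range of the group, above Dixon's critical value), and 8 had one. Chance gives this in about 1 in 20 groups.

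For Hsd11b1 the high libraries were 96.0 TPM in ctrl heart BECs (mouse 1, the others 8.61 to 10.5), 52.1 TPM in angII heart BECs (mouse 3, the others 3.64 to 11.6) and 50.3 TPM in ctrl heart LECs (mouse 11, the others 22.7 to 26.8). The heart BEC libraries of mice 1 and 3 are among the 3 with the highest fibroblast marker sums.

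For Zbtb16, heart BECs held 16.1 TPM in mouse 5 of ctrl (the others 3.76 to 5.06) and 32.9 TPM in mouse 15 of angII (the others 3.24 to 11.3), and both mice were above their group mean in the other 3 populations too. Nr3c2 was at 71.2 TPM in the angII diaphragm LECs of mouse 4, where the others held 18.0 to 32.0. Tsc22d3 was at 181 TPM in the angII cardiomyocytes of mouse 3, where the others held 120.4 to 136. Klf9 was at 92.9 TPM in the angII heart BECs of mouse 18, below the others at 103 to 104.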

How the results depend on the processing

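Of 125 counts of called members recomputed under other settings 115 stayed within 1.5 times, and of 348 log2 differences 310 kept direction and side of the threshold, 11 gained and 24 lost a call and 3 turned sign. The signs that turned were Zbtb16 in heart LECs for angII+VEGFC against angII (0.0454 with the count of genes that reached 1 TPM added as a covariate), Fkbp5 of cardiomyocytes against heart BECs (0.24 under quantile normalization) and Klf9 of heart LECs against heart BECs (0.0021 without the 3 mice of high fibroblast markers, an alternative chosen after seeing the data).

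In cardiomyocytes the count of members called for angII against ctrl, 0 as reported, was 1 with a surrogate variable, 2 with that covariate, 2 with only both groups fitted and 0 to 2 with each library left out. For angII+VEGFC against ctrl it was 1, 2 and 0 to 1 with the first, second and last of these. The cause was not tested.

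Without the replicate block the count of members between heart LECs and diaphragm LECs was 1 in place of 2. It was also 1 with no filter, 1 under quantile normalization, 0 in ctrl mice only, which leaves 4 mice, and 1 to 2 with each mouse left out, when Sgk1 ranged from -0.11 to 0.0177 (positive without mouse 8). In ctrl mice only, the count between heart LECs and heart BECs was 1 in place of 7, and Hsd11b1 of cardiomyocytes against heart BECs, at 1.02, did not pass (adjusted p = 0.0794). The same mice in several populations are paired by the labels. The block changed no count of the interaction fit, and the treatment groups hold different mice, so those comparisons allow no pairing.

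TPM keeps no depth, and groups of 3 to 5 mice limit all treatment comparisons.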
